A study of Mus musculus with 8 samples.

Results

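The 9 genes described here are Stmn2, Stmn3, Syt1, Snap25, Tubb3, Elavl3, Elavl4, Ngfr and Sox10, which are markers of neurons and of cells derived from the neural crest. They were measured in whole mouse kidneys dissected at E13.5. Every non-control probe of a two-colour Agilent 4x44k array whose RefSeq accession belonged to one of these genes was taken, which gave 14 probes for 8 of the 9 genes, on 32 of the 45018 spots of each array. The whole series held 41174 non-control probes. Sox10 had no probe by this rule and was not analysed here. Syt1 had 5 probes, Elavl4 and Ngfr had 2 each, and the other genes had 1 each.

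In the group labelled mutant (UB HDAC1,2-/-) the ureteric bud (UB), the epithelial tree that forms the collecting ducts, was without HDAC1 and HDAC2, a pair of histone deacetylases. These kidneys were compared with wild type kidneys of the same age. Both groups came from a CD1 C57BL/6 mix, and each held 4 biological replicates. A replicate paired 1 mutant with 1 wild type RNA on 2 arrays of opposite dye orientation, which made 8 arrays in all. The deletion concerned the bud alone, while the RNA came from the whole organ, so that bud cells were a portion of what was measured. The driver of the deletion, the alleles of the wild type kidneys and any pooling of embryos are not given in the sources used here.

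Neurons differ from other cells by proteins of the growing axon, of synaptic vesicle release and of neuronal RNA processing. In non-neuronal cells many of these genes are held silent by REST, a zinc finger repressor that binds the RE1 element and recruits HDAC1 and HDAC2 through the corepressors CoREST and Sin3. The kidney forms no neurons of its own. Neurons, glial precursors and chromaffin cells of neural crest origin lie in and around the embryonic organ, along its nerves and in the neighbouring sympathetic ganglia and adrenal medulla.

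Promoter sequences are shown for 3 of the genes, as the stretch searched for REST arms and general promoter motifs: Syt1 and Ngfr, which gave the lowest ratios with a sequence at hand, and Tubb3, whose ratio was near 0. RefSeq windows of build GRCm38.p6, from 250 bases before to 50 bases after a transcript's start, were at hand for 6 of the 9 genes (10 windows). Capitals mark matches, on either strand, to the left arm of RE1 (CAGCACC), its right arm (GGACAG), the GC box (GGGCGG) or the CCAAT box (CCAAT), and no matches overlapped in these windows. Sequences run 5′ to 3′ along the gene's strand.
Syt1, chr10:109010926-109011225, minus strand: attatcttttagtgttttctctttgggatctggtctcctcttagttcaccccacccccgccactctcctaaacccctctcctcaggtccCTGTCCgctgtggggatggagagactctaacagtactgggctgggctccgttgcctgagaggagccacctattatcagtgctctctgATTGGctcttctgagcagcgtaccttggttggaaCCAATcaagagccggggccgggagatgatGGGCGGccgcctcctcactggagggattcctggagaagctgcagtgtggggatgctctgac
Ngfr, chr11:95587649-95587948, minus strand: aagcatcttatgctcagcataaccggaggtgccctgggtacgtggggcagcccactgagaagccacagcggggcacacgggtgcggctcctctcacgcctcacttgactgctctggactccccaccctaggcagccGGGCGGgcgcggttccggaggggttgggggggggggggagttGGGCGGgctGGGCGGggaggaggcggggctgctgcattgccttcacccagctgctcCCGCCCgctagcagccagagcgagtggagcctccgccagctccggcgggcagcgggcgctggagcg
Tubb3, chr8:123411303-123411602, plus strand: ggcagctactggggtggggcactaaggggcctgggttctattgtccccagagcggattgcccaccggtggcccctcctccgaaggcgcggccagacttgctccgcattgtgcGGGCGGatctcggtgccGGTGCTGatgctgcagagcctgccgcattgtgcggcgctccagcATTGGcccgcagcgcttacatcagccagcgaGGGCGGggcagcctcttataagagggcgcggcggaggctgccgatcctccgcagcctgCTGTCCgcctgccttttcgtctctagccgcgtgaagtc
The Tubb3 window held 1 left arm and 1 right arm of RE1, the left arm at position -121 and the right arm at position 12 from the start, so that they did not form 1 joined element, with 2 GC boxes and 1 CCAAT box. The Syt1 window shown held 1 right arm, 1 GC box and 2 CCAAT boxes, while the other Syt1 window, at chr10:109009062-109009361, held no match to any of the motifs, and the Ngfr window held 4 GC boxes and none of the other motifs. These motifs are common: of 32851 windows of the same length, 7.14% held the left arm, 22.2% the right arm, 35.7% a GC box and 37.4% a CCAAT box. A match is a run of letters and not a shown binding site.

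Before the ratios, their direction has to be stated. Each ratio below is the log2 of mutant over wild type signal, with the genotype of each channel taken from the dye labels, and a value below 0 means less signal in the RNA labelled mutant. The authors' deposited table of selected genes has the opposite sign. Of its 496 entries, 491 were matched by accession, and 459 equalled the ratio of the scanner files within 0.01 once the sign was turned, while 0 equalled it as labelled. The authors' deposited table lists Stmn2 at 0.709, Syt1 at 0.761 and Ngfr in 4 entries from 0.494 to 0.570. It does not state which genotype is the numerator. The 4 Ngfr entries share 1 accession, which covers a probe spotted 10 times on each array, so they are not independent values. Syt1 has 1 entry, although it had 5 probes. If that table is mutant over wild type, every sign below turns.

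The check of the labels left this unsettled. Hdac2, a deleted gene, had ratios of 0.60, 0.60, 0.74 and -0.61 in replicates 1 to 4, with a mean of 0.33 ± 0.63 (SD, n = 4) and an adjusted p of 0.757 in limma, so its level differed by less than the spread between replicates. Hdac1 was not analysed here. All 9 kidney markers examined (Ret, Pax2, Six2, Cited1, Foxd1, Wt1, Calb1, Epcam and Krt8) were well above background in both channels on all 8 arrays. Detection in both channels cannot show which dye held the mutant. By the labels, Krt8 (0.956), Calb1 (0.782) and Epcam (0.661) lay above 0, with adjusted p in limma of 0.109 to 0.194. The other 6 markers lay below 0. Their bearing on the direction was not tested. The share of spots well above background per array was 82.1% to 95.9% for the mutant dye and 79.2% to 97.1% for the wild type dye, with the lowest shares on the replicate 2 array that carried the mutant in Cy5.

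Of the 14 probes, 10 were well above background in both channels on all 8 arrays, beside 78.5% of all probes tested. Across the 4 replicates, 10 of the 14 probes had a mean ratio below 0 and 4 a mean above 0. Their median ratio was -0.139, beside 0.0186 over all 39521 probes tested, of which 46.0% were below 0. No probe of these genes passed the threshold of 0.05 on the adjusted p in limma (0 of 14). Over all probes tested, 0.0177% passed it (7 probes, 6 higher and 1 lower in the labelled mutant), and the smallest adjusted p among the 14 was 0.444. After normexp and loess, another background correction and dye normalization, 1 probe of all those tested was higher and 0 were lower. At an unadjusted p under 0.05 in limma, 4 of the 14 were lower, beside 2.86% of all probes tested, and 0 were higher, beside 3.15%. Over all probes this was 1243 higher and 1132 lower, which became 3202 and 615 under normexp and median centring, called median centring below. These 4 were 1 probe of Stmn2, 2 of Syt1 and 1 of Ngfr, genes that the authors' table of selected genes also lists. The count is therefore no test of an excess over all probes. In whole kidneys, fewer cells of a type and less RNA per cell cannot be told apart.

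**Figure D1:**
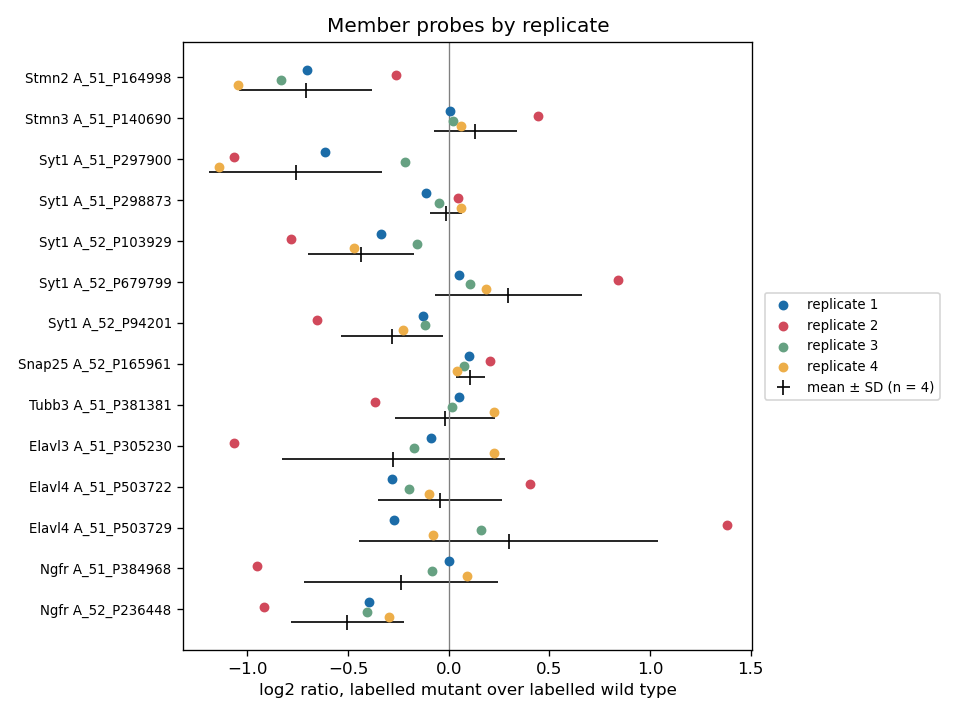
Log2 ratio of labelled mutant over labelled wild type for each of the 14 probes (rows), with 1 point for each of the 4 replicates and the mean ± SD beneath them. The probe of Stmn2, 3 probes of Syt1 and 1 probe of Ngfr lie below 0 in all 4 replicates, and replicate 2, in red, gives the value farthest from the mean in 12 of 14 rows.

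Stmn2, or SCG10, is a stathmin of growing axons that binds tubulin and destabilises microtubules. Its log2 signal in the RNAs labelled mutant was 7.57, 8.16, 7.73 and 7.62 in replicates 1 to 4, against 8.27, 8.42, 8.56 and 8.67 in the RNAs labelled wild type. The groups did not overlap, and the labelled mutant was lower in each of the 4 pairs. The paired log2 ratios were -0.71, -0.26, -0.83 and -1.05, a mean of -0.71 ± 0.33 (SD, n = 4), which is 1.64-fold lower. All 8 arrays gave a ratio below 0, from -0.22 to -1.20, in both dye orientations. Its unadjusted p in limma was 0.00284 and its adjusted p 0.444, and an exact sign-flip permutation test gave the smallest p that 4 replicates allow, 1 in 8. That test gives this p whenever the 4 ratios share a sign, as they did in 16.3% of all probes tested. The mean was -0.425 after normexp background correction and loess. Weighting the replicates by their fitted array weights brought the adjusted p in limma to 0.0173. Slide 2 alone, which held replicates 3 and 4, brought it to 0.0299, and the range over the alternatives was 0.0173 to 0.999. Over all probes, array weights called 147 higher and 88 lower, and slide 2 alone 104 and 348, beside 6 and 1 as reported above. Replicate 2, with the ratio nearest 0, had a weight of 0.164, beside 1.46 to 2.83 for the others, and was not on slide 2. Without replicate 2 the adjusted p in limma was 0.104.

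Stmn3, another neuronal stathmin, was not lower with Stmn2. Its ratios were 0.01, 0.44, 0.02 and 0.06, so that replicate 2 alone stood clear of 0, and the mean was 0.13 ± 0.21 (SD, n = 4, adjusted p in limma 0.757). The signal in the RNAs labelled mutant, 10.19 to 10.88, overlapped the 10.17 to 10.83 of the wild type. Without replicate 2 the mean was 0.0292, and the 4 arrays with the mutant in Cy3 gave -0.0713. The remaining stathmins, Stmn1 (-0.16 ± 0.09) and Stmn4 (-0.09 ± 0.20, both SD, n = 4), had unadjusted p values in limma of 0.132 and 0.451, and both turned positive under median centring, at 0.415 and 0.13.

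Tubb3 encodes class III beta-tubulin, a microtubule subunit widely used to stain neurons. It was spotted 10 times on each array, and 70 of its 80 spot values over the 8 arrays were free of outlier flags. The replicate ratios were 0.05, -0.37, 0.02 and 0.22, with replicate 2 alone below 0, and the mean was -0.02 ± 0.25 (SD, n = 4, adjusted p in limma 0.953). Its signals overlapped between the genotypes, at 9.39 to 9.63 in the RNAs labelled mutant and 9.37 to 9.91 in the wild type. Without replicate 2 the mean was 0.0961. Of the 6 other beta-tubulins tested, 2 lay above 0 and 4 below, with a median of -0.0176, which became 0.452 under median centring, and Tubb4b (0.16 ± 0.12) and Tubb2b (-0.15 ± 0.39, both SD, n = 4) had the smallest unadjusted p in limma, 0.139 and 0.384.

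Syt1 encodes synaptotagmin 1, the calcium sensor of synaptic vesicle release, and its 5 probes gave different answers. Probe A_51_P297900 had a log2 signal of 6.66, 7.04, 7.16 and 6.52 in the RNAs labelled mutant, against 7.28, 8.10, 7.38 and 7.66 in the wild type. The groups did not overlap. The ratios were -0.62, -1.07, -0.22 and -1.14, a mean of -0.76 ± 0.43 (SD, n = 4), which is 1.69-fold lower, and all 8 arrays lay below 0. Its unadjusted p in limma was 0.00488 and its adjusted p 0.530. The mean was -0.437 after normexp and loess.

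Probe A_52_P103929 of Syt1 also had groups that did not overlap, at 8.06, 8.34, 8.33 and 8.09 in the RNAs labelled mutant and 8.40, 9.12, 8.49 and 8.56 in the wild type. Its mean ratio was -0.44 ± 0.26 (SD, n = 4, unadjusted p in limma 0.0143, adjusted p 0.703). This value came from 1 dye orientation: the 4 arrays with the mutant in Cy5 averaged -0.856 and the 4 with the mutant in Cy3 averaged -0.0158. Without the replicate 2 array that had the mutant in Cy5 the mean was -0.229. The brightest Syt1 probe, A_52_P94201, lay below 0 in all 4 replicates at -0.13, -0.66, -0.12 and -0.23, with a mean of -0.28 ± 0.25 (SD, n = 4, adjusted p in limma 0.757), and its groups overlapped. Without replicate 2 that mean was -0.158.

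The last 2 Syt1 probes were not lower. Probe A_52_P679799 was above 0 in all 4 replicates, at 0.05, 0.84, 0.11 and 0.19, with a mean of 0.30 ± 0.37 (SD, n = 4, adjusted p in limma 0.757) that was 0.116 without replicate 2 and -0.0233 under median centring. Probe A_51_P298873 gave -0.11, 0.05, -0.05 and 0.06, a mean of -0.013 ± 0.081 (SD, n = 4, adjusted p in limma 0.957). Its replicate 2 value averages 0.09 with a deposited ratio of exactly 0, from the array with the mutant in Cy5. These 2 were among the 4 probes that were not well above background on every array, in 7 and 7 arrays for A_51_P298873 and in 8 and 7 for A_52_P679799, mutant and wild type. Of 15 other synaptotagmins tested, 10 lay above 0 and 5 below, with a median of 0.0456 that was -0.0273 after normexp and loess, and 0 had an unadjusted p under 0.05 in limma, the smallest being 0.0748 for Syt12.

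Snap25 encodes a SNARE protein of the plasma membrane that works with synaptotagmin in vesicle fusion. It was the dimmest measurement of the set by detection, well above background on 6 of 8 arrays in each channel. Its ratios were 0.10, 0.21, 0.08 and 0.04, all above 0, with a mean of 0.11 ± 0.07 (SD, n = 4, adjusted p in limma 0.757). The sign turned after normexp and loess, to -0.025, and under median centring, to -0.147. Of its relatives, Snap23 had a mean of 0.26 ± 0.31 and Snap47 of -0.09 ± 0.08 (both SD, n = 4), with unadjusted p values of 0.111 and 0.360 in limma.

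Elavl3 and Elavl4 encode HuC and HuD, RNA-binding proteins of differentiating neurons that stabilise and help splice neuronal transcripts. The Elavl3 ratios were -0.09, -1.07, -0.17 and 0.23, a mean of -0.27 ± 0.56 (SD, n = 4, adjusted p in limma 0.757), and its probe was well above background on 6 arrays in the mutant channel and 8 in the wild type channel. A single array, replicate 2 with the mutant in Cy5, read -2.18 and its dye swap 0.04, and without that array the mean was 0.00356. The brighter Elavl4 probe, A_51_P503722, gave -0.28, 0.41, -0.20 and -0.10, a mean of -0.04 ± 0.31 (SD, n = 4, adjusted p in limma 0.906). The dimmer one, A_51_P503729, gave -0.27, 1.38, 0.16 and -0.08, a mean of 0.30 ± 0.74 (SD, n = 4, adjusted p in limma 0.757) that was -0.0619 without replicate 2. For both Elavl4 probes replicate 2 was the highest, and the signals of the 2 genotypes overlapped for all 3 probes. The other family members Elavl2 (0.14 ± 0.21) and Elavl1 (0.03 ± 0.19, both SD, n = 4) also differed by less than the spread between replicates, with unadjusted p values of 0.266 and 0.793 in limma.

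Ngfr encodes the low-affinity neurotrophin receptor, which marks migrating neural crest cells and Schwann cell precursors, and which in the rat is also found in mesenchyme of the developing kidney. Probe A_52_P236448 was spotted 10 times on each array. Its log2 signal was 13.04, 12.86, 12.69 and 12.95 in the RNAs labelled mutant, against 13.43, 13.78, 13.09 and 13.25 in the wild type, and the groups did not overlap. The ratios were -0.40, -0.92, -0.40 and -0.30, a mean of -0.50 ± 0.28 (SD, n = 4), which is 1.42-fold lower. Of its 80 spot values, 76 were free of outlier flags and each of these was below 0, from -1.42 to -0.043. Both dye orientations gave close to the same mean, -0.494 and -0.515. Its unadjusted p in limma was 0.00877, its adjusted p 0.627 and its exact sign-flip permutation p again 1 in 8. The mean was -0.178 under normexp and median centring, which replace both the scanner's background correction and its dye normalization.

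The other Ngfr probe, A_51_P384968, did not follow it. Its ratios were 0.003, -0.95, -0.08 and 0.09, a mean of -0.24 ± 0.48 (SD, n = 4, adjusted p in limma 0.757), and without replicate 2 the mean was 0.00357. In the wild type RNAs its log2 signal was 12.28 in replicate 2 and 10.79 to 11.12 in the others, while the RNAs labelled mutant read 10.88 to 11.33. In replicate 2 both Ngfr probes were low, at -0.95 and -0.92, and in the other replicates A_52_P236448 alone stood clear of 0.

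**Figure D2:**
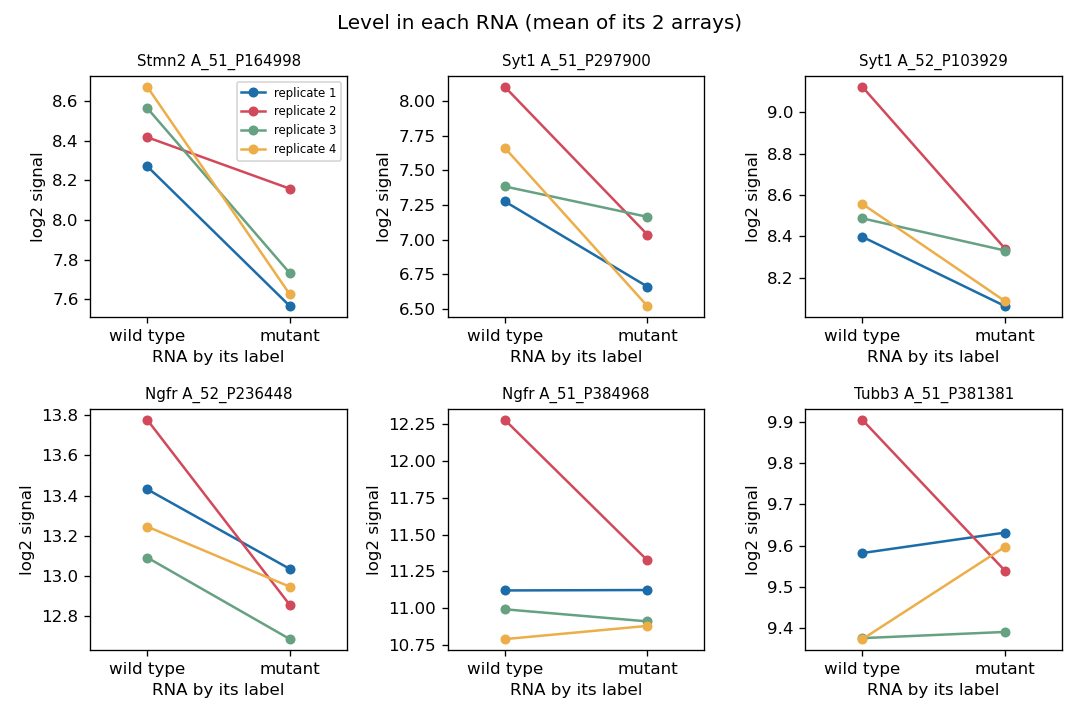
Log2 signal in each RNA, averaged over its 2 arrays, for 6 probes of Stmn2, Syt1, Ngfr and Tubb3, with wild type and mutant by label joined within each replicate by a line. For Stmn2, 2 probes of Syt1 and Ngfr A_52_P236448 all 4 mutant values lie below all 4 wild type values, and for Ngfr A_51_P384968 replicate 2 stands apart at 12.28 in the wild type. Each panel has its own vertical axis, which does not start at 0.

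Taking the 14 probes together, 5 were below 0 in 4 of 4 replicates, beside 5.63% of all probes tested, and 3 were above 0 in 4 of 4, beside 10.7%. The 3 probes below 0 on all 8 arrays, for Stmn2, Syt1 (A_51_P297900) and Ngfr (A_52_P236448), stand beside 1.06% of all probes, and the 4 probes whose mutant signals all lay below the wild type signals stand beside 0.838%. The 14 probes share 8 genes, so they are not independent counts. The genes were also chosen with earlier results of these data known, and the authors' table of selected genes lists Stmn2, Syt1 and Ngfr. These counts are therefore no test of an excess over all probes. With 1 probe a gene, the brightest, 6 of 8 genes were below 0 and their median was -0.158. Over all named genes, 7123 of 17113 were below 0 and the median was 0.0365. For Syt1 and Elavl4 the probes of 1 gene differed in sign. Replicate 2 gave the value farthest from the mean of the 4 in 12 of 14 probes, beside 59.0% of all probes with 4 values.

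Slides were inferred from the scan identifiers in the file headers. Replicates 1 and 2 shared 1 identifier and replicates 3 and 4 another, and these are called slide 1 and slide 2 here. The result was not equal on them. The median ratio of the 14 probes was -0.275 within slide 1, and 0.00564 within slide 2, where 6 probes were below 0. Stmn2 was lower on both slides, at -0.483 and -0.940. Syt1 A_51_P297900 averaged -0.841 and -0.680, and Ngfr A_52_P236448 averaged -0.657 and -0.352. Slide 1 held replicate 2, without which the median of the 14 probes was -0.0472. The difference between slides, and the part of replicate 2 in it, was not tested.

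**Figure D3:**
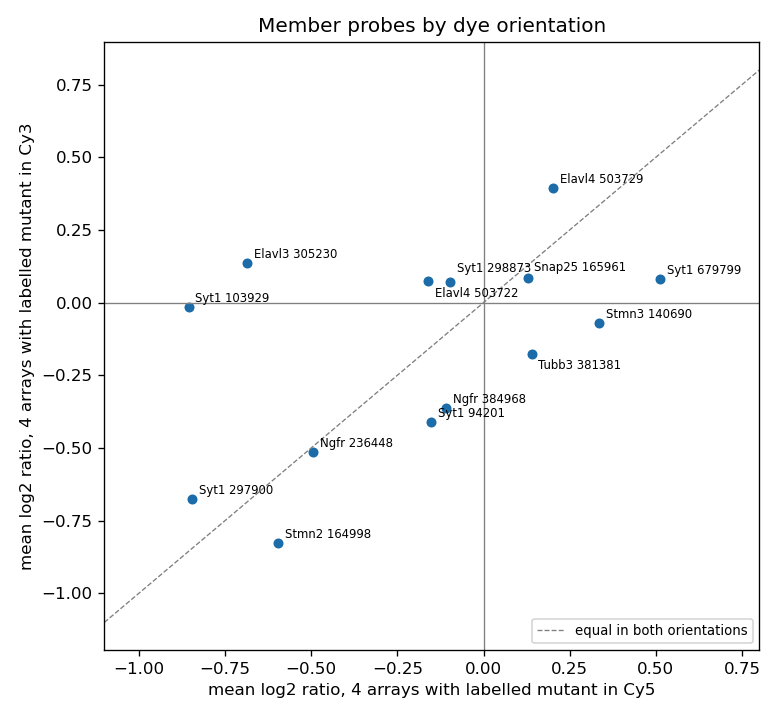
Mean log2 ratio of each of the 14 probes, averaged over the 4 mutant-in-Cy5 arrays (horizontal) and over the 4 mutant-in-Cy3 arrays (vertical), with a dashed line where both are equal. Stmn2, Syt1 A_51_P297900 and Ngfr A_52_P236448 are below -0.4 in both orientations, while Syt1 A_52_P103929 is at -0.856 in one and -0.0158 in the other.

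Other genes of the same biology were examined from lists, with each gene represented by its brightest probe. Over all 17113 named genes tested this way, 9990 lay above 0 and 7123 below, with a median of 0.0365. Of them, 0.0175% passed the adjusted threshold in limma, and 4.14% were higher and 1.95% lower at an unadjusted p under 0.05. Of 29 other neuronal genes tested, 10 lay above 0 and 19 below, with a median of -0.0765, 0 passed the adjusted threshold, and 1 was higher and 1 lower at the unadjusted p. The higher one was Map2, a dendritic microtubule protein, with ratios of 0.46, 1.04, 0.64 and 0.41 and a mean of 0.64 ± 0.28 (SD, n = 4, unadjusted p in limma 0.00303, adjusted p 0.457 and 0.0495 to 0.999 over the alternatives). The lower one was Dcx, doublecortin, a microtubule protein of migrating neurons, with ratios of -0.91, -0.44, -0.31 and -0.14 and a mean of -0.45 ± 0.33 (SD, n = 4, unadjusted p in limma 0.0215, adjusted p 0.745), which was -0.157 under median centring and -0.296 without replicate 1. Within slide 2 and without replicate 2 the median of this list was above 0, at 0.0348 and 0.0148.

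Of 27 genes that REST is known to repress, 12 lay above 0 and 15 below. Their median was -0.0691, but 0.0117 with array weights, 0.0256 within slide 2 and 0.0118 without replicate 2, and below 0 in the other alternatives. At the unadjusted p, 0 of them were higher and 1 was lower, the neural splicing activator Srrm3, with ratios of -1.01, -1.61, -2.28 and -2.37 and a mean of -1.82 ± 0.64 (SD, n = 4). Its unadjusted p in limma was 0.000286 and its adjusted p 0.177, while its 3 probes spanned -1.82 to 0.176, so they did not go one way. With the 8 arrays as separate values, 2 for each replicate, and the replicate as a block, the adjusted p in limma was 0.00259. Over the alternatives it ranged from that value to 0.999. The block fit took 2 arrays of the same RNAs per replicate. Over all probes it called 96 higher and 37 lower, beside 6 and 1 as reported above. Slc12a5, a neuronal chloride transporter, followed at -0.23 ± 0.32 (SD, n = 4, unadjusted p in limma 0.153). Rest itself read -0.21, -0.62, -0.46 and -0.35 on its brighter probe, a mean of -0.41 ± 0.17 (SD, n = 4, unadjusted p in limma 0.00834, adjusted p 0.621). Under median centring that mean was 0.00248. The dimmer Rest probe had a mean of -0.29 ± 0.39 (SD, n = 4, unadjusted p in limma 0.134). Among 16 genes of REST and its corepressors, 4 lay above 0 and 12 below, with a median of -0.0468 that was 0.27 under median centring, and Hmg20b, a subunit of the CoREST complex, was the lowest at -0.76 ± 0.53 (SD, n = 4, unadjusted p in limma 0.0106, adjusted p 0.661), or -0.340 under median centring.

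Of 23 further neural crest and glial genes tested, 9 lay above 0 and 14 below, with a median of -0.0454, and 1 was higher and 0 lower at the unadjusted p. The higher one, Mia, a secreted protein of cartilage and melanoma cells, had ratios of 1.05, 1.22, 1.17 and 1.30, above 0 on all 8 arrays, with a mean of 1.18 ± 0.10 (SD, n = 4), which is 2.27-fold higher, an unadjusted p in limma of 1.59e-05 and an adjusted p of 0.0576. Its 3 probes all lay above 0, from 1.18 to 1.81. With the 8 arrays as separate values, 2 for each replicate, and the replicate as a block, the adjusted p in limma was 0.000175. Over the alternatives it ranged from that value to 0.999. The block fit took 2 arrays of the same RNAs per replicate, and over all probes it called 96 higher and 37 lower. Gfra3, the artemin receptor of sympathetic precursors, followed at -0.23 ± 0.11 (SD, n = 4, unadjusted p in limma 0.0509). Of Sox10's relatives, Sox8 had a mean of 0.11 ± 0.17 and Sox9 of 0.04 ± 0.33 (both SD, n = 4), with unadjusted p values of 0.340 and 0.799 in limma.

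Of 20 sympathetic and chromaffin genes, 10 lay above 0 and 10 below, with a median of -0.00307. The 2 that were higher at the unadjusted p were Gata2 (0.41 ± 0.13, unadjusted p in limma 0.00605, adjusted p 0.569) and Gata3 (0.41 ± 0.30, SD, n = 4, unadjusted p in limma 0.0251), factors that are also present in the ureteric bud lineage. Of 12 genes of neurotrophin signalling, 5 lay above 0 and 7 below, with a median of -0.0308, and 0 had an unadjusted p under 0.05 in limma, with Maged1 (-0.18 ± 0.11) and Ntrk2 (-0.12 ± 0.13, both SD, n = 4) at the smallest values, 0.110 and 0.271.

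**Figure D4:**
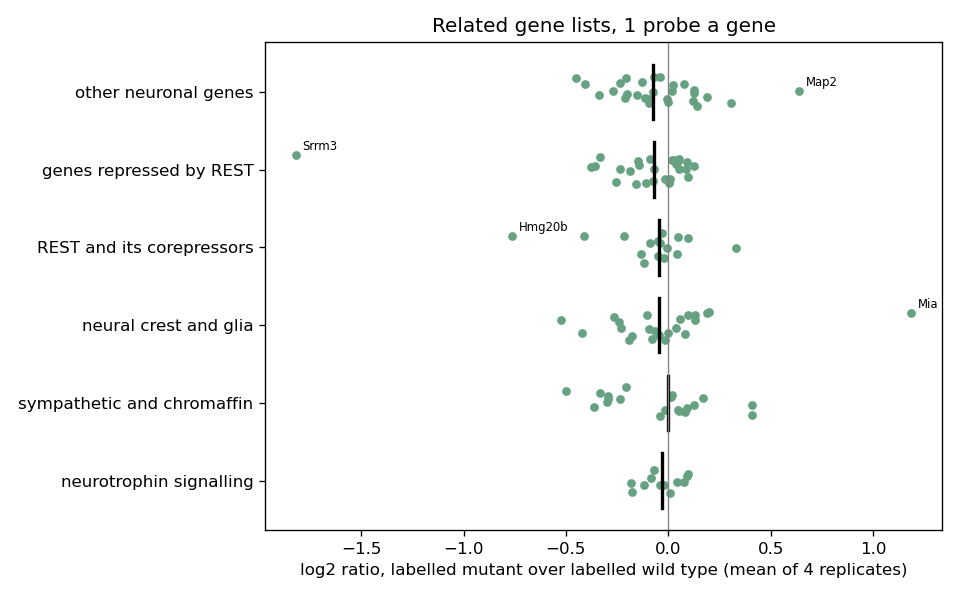
Mean log2 ratio over 4 replicates of each gene (points) in 6 lists of related genes (rows), with the list median as a vertical bar. The medians lie between -0.0765 and -0.00307, and Srrm3 at -1.82, Hmg20b at -0.76, Map2 at 0.64 and Mia at 1.18 lie farthest out.

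Summed signals of whole lists, each gene by its brightest probe, are given for the mutant and then the wild type RNAs. The brightest probes weigh most in such a sum. The 8 genes summed to 11220 to 13646 and 13840 to 19027, of which Ngfr alone gave 6593 to 8394 and 8730 to 14023. Without Ngfr the other 7 genes summed to 4627 to 5474 and 5004 to 5789, which overlapped. The other neuronal genes summed to 62801 to 63712 and 60378 to 74337, the crest and glial genes to 41564 to 43758 and 41731 to 52827, and the sympathetic and chromaffin genes to 27713 to 32242 and 28932 to 33375, all with overlap. Of these 3 lists, 28 of 29, 21 of 23 and 16 of 20 genes were well above background in both channels on all 8 arrays. Markers of the adrenal cortex and gonad summed to 730 to 938 and 647 to 918, and 3 of the 4 (Amh, Nr5a1 and Star) were not well above background on every array. Macrophage markers were below 0 in 3 of 3 genes, with a median of -0.306 and summed signals of 1820 to 2461 and 2396 to 3174. Of the 9 kidney markers, 3 lay above 0 and 6 below, with a median of -0.035. Those above 0 were Krt8, Calb1 and Epcam, at 0.956, 0.782 and 0.661, and those below were Wt1 at -0.287, Foxd1 at -0.103, Ret at -0.051, Cited1 at -0.049, Six2 at -0.035 and Pax2 at -0.027. Their part in the values above was not tested.

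The named genes whose signal over the 8 RNAs was most like that of each member were found by Pearson correlation, as a description only, since the RNAs share arrays in pairs. For Stmn2 these were Gata6 (r = 0.953), Srgap3 (0.936) and Prr15 (0.932). For Syt1, by its brightest probe, they were Bace1 (0.965), Dscaml1 (0.961) and H1f1 (0.960). For Ngfr they were Slc7a7 (0.980), Ddx54 (0.966) and Pex11a (0.963). Among the dimmer or flatter members, the closest were Olfr891 for Stmn3 (0.995), Rara for Snap25 (0.992), Ppp2r2d for Tubb3 (0.981), Il1f10 for Elavl3 (0.977) and Lyz1 for Elavl4 (0.989). No member was among the 3 genes closest to another member.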

How the data were processed

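RNA of each replicate was labelled from 0.5 µg of total RNA, per the labels' protocols. Spots were read with Feature Extraction 10.5.1.1, per the file headers. The deposited log10 ratio of each spot is red (Cy5) over green (Cy3) processed signal, which the scanner software background-subtracted and dye-normalized, per the file headers. The deposited intensity columns hold those processed signals and the median signals of spot and local background, which are not normalized. The authors' deposited table gives log2 ratios of selected genes without stating their direction. The deposited flags (well above background, outlying, saturated) are 0 or 1. Of the non-control spots, 0.938% to 8.54% per array had a deposited ratio of exactly 0, and these were kept as values.

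Log10 ratios were turned into log2 and to labelled mutant over labelled wild type. Outlier spots were left out, spots of a probe averaged, and the 2 dye orientations of a replicate averaged, so that each replicate counts once. A probe was kept if 4 of the 8 arrays or more showed it well above background in either channel (39521 of 41174). Ratios were tested against 0 with limma 3.58.1 in R 4.3.3 (lmFit, eBayes), two-sided, with Benjamini-Hochberg adjustment over all probes at 0.05. The fit was tested on simulated data. Signals are log2 processed signals after Aquantile normalization between arrays, compared between genotypes within a probe and summed over lists. The brightest probe of a gene was chosen by its mean log2 processed signal without that normalization. The number of arrays limits the precision, and 0 spots were saturated. Probes took their gene from RefSeq accessions in the GRCm38.p6 table, used for names, which named 24782 probes. RefSeq promoter windows are of GRCm38.p6.

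Partner RNAs of a replicate deviated together from their group means (r = 0.554 to 0.777 over probes), and each correlated best with its partner. The pairing comes from shared arrays, and the ratio keeps it. The ratios of the 2 dye orientations of a replicate correlated over probes at r = 0.293, 0.584, 0.216 and 0.458 in replicates 1 to 4. Named genes are the members' probes, Hdac2, Rest, and from each list the 2 genes of smallest unadjusted p, plus the 3 genes most like each member. The kidney markers and the markers named as not above background were named outside this rule, after their values were seen. The members and lists were chosen with earlier results of these data known. Alternatives changed the background correction and dye normalization, the filter, outlier spots, replicate block, array weights, slide, dye orientation, probes per gene and each replicate in turn. Leaving out the replicate 2 array with the mutant in Cy5 was added after the data were seen.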

Additional observations from a re-analysis of the deposited data

Results flagged for a closer look

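Within groups of 4 values, a value far from the other 3 (a gap, as a share of the group's range, above Dixon's critical value) was looked for among the replicate ratios and the signals of each genotype for the 14 probes, 42 groups in all. Such a value was found in 5 groups, where chance gives about 1 in 20, and replicate 2 was the distant one each time. The Stmn3 ratio was 0.44 in replicate 2 and 0.01 to 0.06 in the others, a gap of 0.873 of the range. The ratio of Syt1 A_52_P679799 was 0.84 in replicate 2 and 0.05 to 0.19 in the others, a gap of 0.833. The ratio of Ngfr A_51_P384968 was -0.95 in replicate 2 and -0.08 to 0.09 in the others, a gap of 0.835. The wild type signal of Syt1 A_51_P298873 was 6.03 in replicate 2 and 6.62 to 6.74 in the others, a gap of 0.836. The wild type signal of Elavl4 A_51_P503722 was 10.60 in replicate 2 and 11.19 to 11.23 in the others, a gap of 0.939. The replicate 2 array with the mutant in Cy5 also had the fewest spots well above background (82.1% and 79.2%), and its part in these values was not tested.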

How the results depend on the processing

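No alternative turned the sign of Stmn2, Syt1 A_51_P297900, Syt1 A_52_P103929, Syt1 A_52_P94201 or Ngfr A_52_P236448, and of all 14 probes Stmn2 alone passed the adjusted threshold in limma, with array weights and within slide 2 (1 probe each). Over all probes, array weights called 147 higher and 88 lower, and slide 2 called 104 and 348, beside 6 and 1 as reported. Array weights gave replicate 2 the lowest weight, 0.164, and slide 2 did not hold it. With 4 replicates and 2 slides of 2 replicates, the slide values rest on few samples. The median of the 14 probes was -0.275 within slide 1, 0.00564 within slide 2 and -0.0472 without replicate 2. Within slide 2, and with 1 probe a gene, 6 were below 0. Within slide 1, and with 1 probe a gene, 2 were lower at the unadjusted p. Over all probes 355 were lower within slide 1, and 1.95% of named genes were lower by their brightest probe. The cause of the values that turned was not tested. Dim probes (Snap25, Elavl3, Syt1 A_51_P298873 and A_52_P679799) were not above background on all arrays.

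Calls over all probes in limma, higher and lower, were 6 and 1 as reported. They were 1 and 0 after normexp and loess, 14 and 3 under normexp and median centring, 1 and 1 with no filter, 12 and 1 with the strict filter, and 147 and 88 with array weights. With the 8 arrays as separate values and the replicate as a random block, which keeps the pairing, 96 and 37 were called. The smallest adjusted p in limma among the 14 probes was then 0.0572. That fit took 2 arrays of the same RNAs per replicate and 1 correlation between them, 0.299, for all probes. With slide as a fixed block they were 0 and 1, within slide 1 they were 0 and 0, and within slide 2 they were 104 and 348. The mutant-in-Cy5 arrays gave 0 and 1, the mutant-in-Cy3 arrays 28 and 8, 1 probe a gene 2 and 1, and all but the replicate 2 array of mutant in Cy5 gave 1 and 1. Leaving out each replicate in turn gave 0 to 9 higher and 0 to 1 lower. At the unadjusted p of limma, the 1243 higher and 1132 lower became 3202 and 615 under median centring, 2443 and 2665 with array weights, 395 and 355 within slide 1, and 3778 and 2308 with the mutant-in-Cy3 arrays. The lower count was 3105 within slide 2 and 735 without the replicate 2 array of mutant in Cy5. Leaving out each replicate in turn gave 446 to 1511 higher and 459 to 1616 lower.

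After normexp and loess, the sign turned for Snap47 (0.0492), Sox8 (-0.00568) and Snap25 A_52_P165961 (-0.025). There the list medians were -0.0736 for sympathetic and chromaffin genes and -0.0273 for other synaptotagmins. Under normexp and median centring, the sign turned for Rest A_52_P31687 (0.00248), Maged1 (0.341), Slc12a5 (0.0285), Snap47 (0.361), Stmn1 (0.415), Stmn4 (0.13), Tubb2b (0.204), Elavl4 A_51_P503722 (0.0273), Elavl4 A_51_P503729 (-0.0452), Snap25 A_52_P165961 (-0.147), Syt1 A_52_P679799 (-0.0233) and Tubb3 A_51_P381381 (0.0153). There the list medians were 0.452 for beta-tubulins, 0.395 for Elavl relatives, 0.27 for REST and corepressors, 0.361 for Snap25 relatives, 0.273 for other stathmins and -0.0844 for other synaptotagmins. Within slide 1, the sign turned for Elavl1 (-0.0437), Sox8 (-0.00228), Sox9 (-0.0105) and Elavl4 A_51_P503722 (0.0627). There the list median was -0.114 for REST and corepressors. Within slide 2, the sign turned for Tubb2b (0.0639), Elavl3 A_51_P305230 (0.0284), Ngfr A_51_P384968 (0.00388), Syt1 A_51_P298873 (0.0074) and Tubb3 A_51_P381381 (0.119). There the list medians were 0.0355 for crest and glia, 0.0348 for other neuronal genes and 0.0824 for sympathetic and chromaffin genes. With only the mutant-in-Cy5 arrays, the sign turned for Elavl1 (-0.159), Snap47 (0.0784), Sox9 (-0.121), Stmn1 (0.0678), Stmn4 (0.0638) and Tubb3 A_51_P381381 (0.139). There the list medians were -0.0412 for Elavl relatives, 0.00328 for other neuronal genes and 0.0658 for other stathmins. With only the mutant-in-Cy3 arrays, the sign turned for Sox8 (-0.0223), Elavl3 A_51_P305230 (0.137), Elavl4 A_51_P503722 (0.0756), Stmn3 A_51_P140690 (-0.0713) and Syt1 A_51_P298873 (0.0705). There the list medians were 0.21 for Elavl relatives, -0.318 for other stathmins and -0.0443 for other synaptotagmins. With array weights, the sign turned for Tubb3 A_51_P381381 (0.0645). Without the replicate 2 array of mutant in Cy5, the sign turned for Elavl3 A_51_P305230 (0.00356). Leaving out each replicate in turn gave ranges that crossed 0 for Elavl1 -0.026 to 0.114, Sox9 -0.0698 to 0.179, Tubb2b -0.283 to 0.0242, Elavl4 A_51_P503722 -0.192 to 0.0368, Elavl4 A_51_P503729 -0.0619 to 0.489, Ngfr A_51_P384968 -0.344 to 0.00357, Syt1 A_51_P298873 -0.0376 to 0.02 and Tubb3 A_51_P381381 -0.1 to 0.0961. The median of the other neuronal genes ranged from -0.074 to 0.0148, the highest without replicate 2. For the 14 probes over all alternatives, 216 values kept sign and side of the threshold, 24 turned sign and 2 newly passed the threshold.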
